A study of Mus musculus with 12 samples.

Results

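The genes described here are the intracellular adaptors and kinases through which Toll-like receptors signal. They comprised the MyD88-branch adaptors Myd88 and Tirap, the TRIF-branch adaptors Ticam1 (encoding TRIF) and Ticam2 (encoding TRAM), the kinase family Irak1, Irak2, Irak3, and Irak4, and the TRAF proteins Traf1 and Traf6. These 10 members were chosen by name, through the match of their Ensembl identifiers to mouse gene symbols, from the 43626 genes in the files. The data were 12 RNA-Seq libraries of BMDMs, which are macrophages grown in culture from mouse bone marrow, with 3 libraries for each of 4 conditions. Quiescent cells received PBS, and the others received 3′SL (100 μg/mL), LPS (10 ng/mL), or LPS + 3′SL, each for 6 hours. 3′SL is 3′sialyllactose, a sugar of human milk made of lactose and sialic acid, and LPS is the cell wall component of gram-negative bacteria that activates TLR4. In the labels 3′SL appears only as HMO, for milk oligosaccharides in general, and the treatment field speaks of injected mice. Doses and duration were therefore taken from the study's own text. The labels give no strain, genotype, sex, age, or number of mice for the cultures and no donor or batch, so that p-values measure the spread between these libraries, which may be technical.

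TLR4 uses both branches of this pathway. At the plasma membrane, TIRAP brings MyD88 to the receptor, MyD88 assembles with IRAK4, IRAK1, and IRAK2, and TRAF6 then passes the signal to the kinase TAK1 and on to NF-κB and MAP kinases. From endosomes, TRAM connects the receptor to TRIF, which acts through TRAF3 and TBK1 on IRF3 and type I interferon, and IRAK-M, the product of Irak3, restrains the MyD88 branch in macrophages. The comparisons asked how far LPS changed the mRNA levels of each branch, whether 3′SL changed them without LPS, and whether it changed their response to LPS.

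Between 20411741 and 26851890 reads per library were counted on genes. All 10 members were among the 14308 genes with enough counts to be tested, and the member with the fewest reads, Traf1, still had at least 47 in every library. Levels are CPM, that is counts scaled to a common library size after TMM adjustment in edgeR. A gene was called where edgeR's quasi-likelihood test gave a Benjamini-Hochberg adjusted p under 0.05 and the difference reached 1.5-fold. With condition means removed, the libraries fell into 3 sets of 4, each a run of consecutive label numbers with 1 library of every condition, and these residuals correlated at a mean of 0.596 between libraries of a set and −0.35 across sets. Values below are always listed for library sets 1, 2, and 3 in that order. A fit with the sets as a block is given where it changed a call, and for some members where it did not. Macrophage markers were abundant in every library, with a summed level of 17645 to 30050 CPM over 9 genes. The summed level of 8 fibroblast and stromal markers was 541 to 628 CPM in set 1, 22.8 to 42.3 in set 2, and 55.5 to 97.8 in set 3. The 8 neutrophil markers summed to 139, 264, and 547 CPM with PBS and to 152, 284, and 302 with 3′SL. They summed to 221, 447, and 1015 CPM with LPS and to 219, 412, and 936 with LPS + 3′SL. Of the 5 osteoclast markers, most of the signal was Acp5, and their sum was at most 26.4 CPM with PBS and 25.1 with 3′SL, 108 to 196 with LPS, and between 64.1 and 131 with LPS + 3′SL, while the defining receptor Calcr was at most 0.20. The 6 dendritic cell markers summed to at most 2.47 CPM without LPS and to between 5.67 and 16.2 with it, mostly from Xcr1. Markers of T cells, B cells, mast cells, and erythroid cells summed to at most 3.74 CPM. The part of these cell type markers in the results below was not tested. In bulk RNA, fewer cells of a type and less RNA per cell cannot be told apart.

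With LPS alone, 7 of the 10 members rose and 0 fell, against 38.5% of all genes called (18.3% higher and 20.2% lower). The 7 were Myd88, Tirap, Ticam1, Irak2, Irak3, Traf1, and Traf6, and in each of them the lowest LPS library exceeded the highest PBS library, a separation that 27.3% of all genes showed in this direction. The increases ranged from 1.60-fold for Traf6 to 68.0-fold for Traf1, and Irak1, Irak4, and Ticam2 did not pass the thresholds. These counts depended on the scaling. When libraries were scaled to total counts instead, the median over all genes moved from −0.061 to −0.71 on the log2 scale, and 4 members were called higher (Myd88, Irak2, Irak3, and Traf1) and 2 lower (Irak1 and Irak4), against 10.7% of all genes called higher and 46.5% lower. The 10 members spanned a wide range of expression. Per kilobase of exon, the highest level with PBS was that of Irak1 at 21.0 ± 2.43 CPM per kilobase (SD, n = 3), and Myd88 stood beside it at 20.3 ± 4.88. They were followed by Irak2 (12.1 ± 3.30), Ticam1 (8.29 ± 1.80), Irak4 (7.06 ± 0.20), Irak3 (6.46 ± 0.92), Tirap (4.94 ± 0.27), Traf6 (4.88 ± 0.42), Ticam2 (2.32 ± 0.74), and Traf1 (0.24 ± 0.078). Neighbours whose mean ± SD overlapped were Irak1 with Myd88, Irak2 with Ticam1, Ticam1, Irak4, and Irak3 with one another, and Tirap with Traf6. With LPS the order per kilobase became Myd88 (148 ± 29.4), Irak3 (80.6 ± 11.1), Irak2 (72.1 ± 4.80), Ticam1 (16.8 ± 2.68), Traf1 (16.6 ± 4.65), Irak1 (16.5 ± 2.25), Tirap (8.72 ± 0.70), Traf6 (7.78 ± 0.34), Irak4 (6.97 ± 0.61), and Ticam2 (3.37 ± 0.49). Irak3 and Irak2 overlapped here, as did Ticam1, Traf1, and Irak1 with one another, Tirap with Traf6, and Traf6 with Irak4. Irak1, at rest the most abundant member together with Myd88, thus stood below Myd88, Irak3, and Irak2 after LPS.

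**Figure D1:**
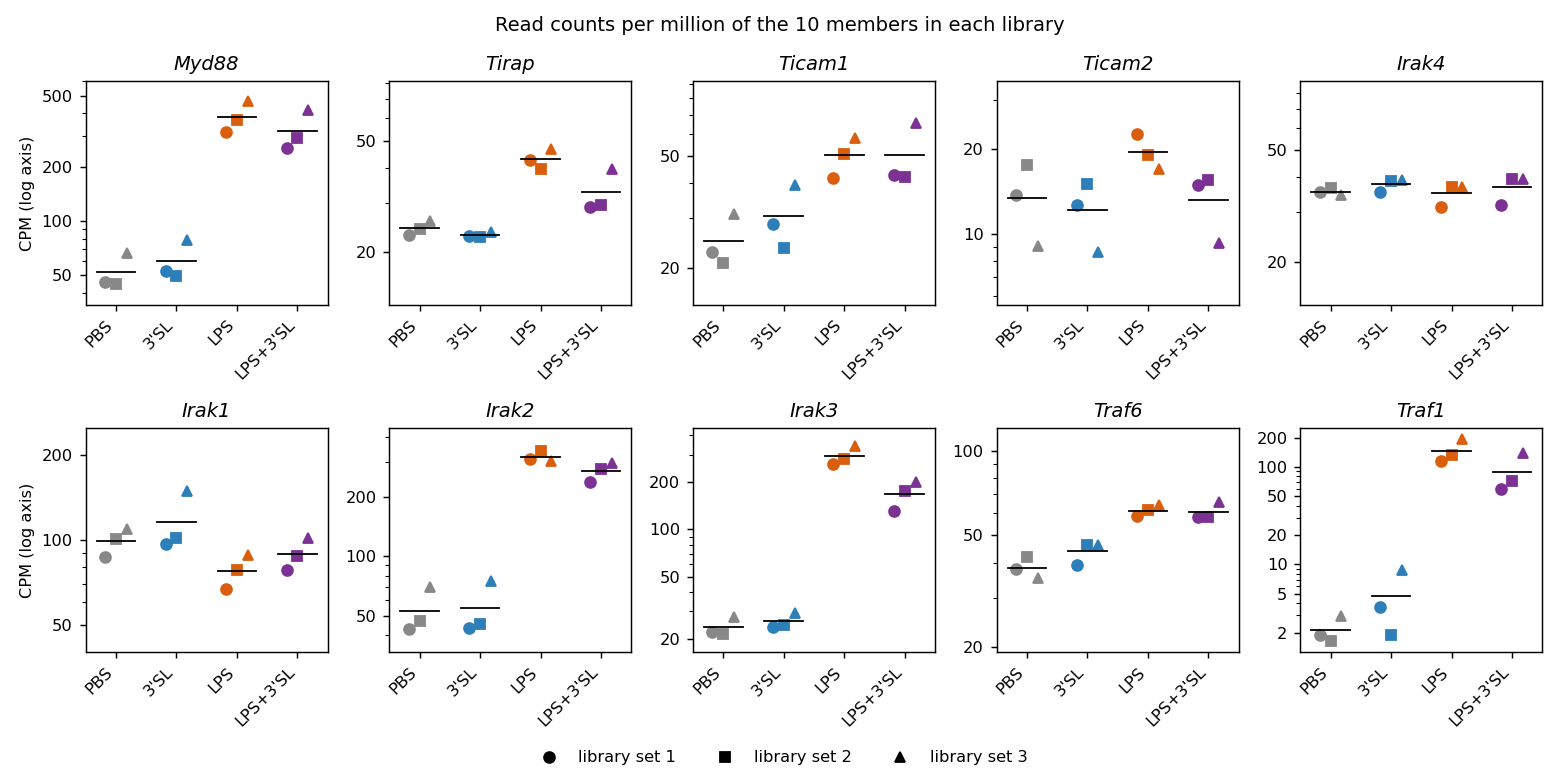
CPM (log axis, a range of its own in each panel) of the 10 members in the 12 libraries, by condition; symbols mark the library set, the line is the mean of 3 libraries. Myd88, Irak2, Irak3, and Traf1 lie far above their PBS levels in both conditions with LPS, whereas Irak4 stays between 31.4 and 39.3 CPM throughout.

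Myd88 (ENSMUSG00000032508.8; GRCm38 chromosome 9, 119335934 to 119341411, minus strand), the adaptor shared by nearly all Toll-like receptors and the IL-1 receptor family, was at 45.7, 44.4, and 66.8 CPM with PBS. It was at 315, 366, and 464 CPM with LPS. Every LPS library thus lay several-fold above every PBS library, and the log2 fold change in edgeR's model was 2.87 with a standard error (SE) of 0.27 (edgeR's adjusted p = 1.18e-05). It was 2.79, 3.04, and 2.80 within the library sets. Tirap (ENSMUSG00000032041.11; chromosome 9, 35184551 to 35200291, minus strand), the sorting adaptor that carries MyD88 to TLR2 and TLR4, was at 23.1, 24.2, and 25.8 CPM with PBS and at 42.6, 39.8, and 46.6 with LPS. The groups did not overlap, and the log2 fold change was 0.82 (SE 0.13, edgeR's adjusted p = 3.5e-04). With total counts the call was lost (0.16, adjusted p = 0.194), although relative to the median of all genes the change was 0.87 under that scaling and 0.88 with TMM factors.

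The sequence before RefSeq's transcription starts of the member genes was searched for 3 short motifs, because members of both branches rose together. RefSeq's promoter table for GRCm38.p6 held 12 windows for 9 of the members. Bases −250 to −26 before each RefSeq start were read. These starts are not always GENCODE's, and 4 windows (that of Myd88, both of Tirap, and 1 of Irak3) lay inside the GENCODE span of their gene, 3 of them, those of Tirap and Irak3, with some exonic bases. The Myd88 window held 0 exonic bases and was crossed by the intron of 1 of the 3 GENCODE transcripts, which starts further upstream. On both strands, the motifs were GGG and TTCC with any 3 bases between them for κB sites, GAAA and GAAA with any 2 bases between them for the interferon-stimulated response element, and TGANTCA for AP-1. A match occurred in 3.94%, 2.68%, and 6.24% of the 32851 windows of all genes, respectively. Among the members there was 1 match, in Myd88, where GAAAGCGAAA stood at −40 to −31. The windows of Myd88 (chr9:119340044-119340268), Ticam1 (chr17:56276793-56277017), and Traf1 (chr2:34961798-34962022), all on the minus strand, are shown as the central adaptor of each branch and the member with the highest fold, with the matching bases in capitals. A match is a description of the letters and no evidence of a bound site.
Myd88: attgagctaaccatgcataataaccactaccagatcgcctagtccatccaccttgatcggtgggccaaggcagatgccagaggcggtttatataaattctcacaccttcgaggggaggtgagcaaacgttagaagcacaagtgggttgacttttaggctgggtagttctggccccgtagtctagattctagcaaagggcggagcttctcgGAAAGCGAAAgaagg
Ticam1: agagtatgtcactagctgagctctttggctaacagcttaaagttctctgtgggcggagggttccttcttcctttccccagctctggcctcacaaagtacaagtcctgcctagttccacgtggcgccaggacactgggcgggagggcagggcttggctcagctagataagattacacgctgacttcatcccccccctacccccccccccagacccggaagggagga
Traf1: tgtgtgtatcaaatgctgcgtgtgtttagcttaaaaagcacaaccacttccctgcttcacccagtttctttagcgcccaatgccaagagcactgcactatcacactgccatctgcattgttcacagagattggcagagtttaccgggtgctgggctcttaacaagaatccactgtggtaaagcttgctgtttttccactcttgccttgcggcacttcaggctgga

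On the TRIF branch, Ticam1 (ENSMUSG00000047123.8; chromosome 17, 56269319 to 56276786, minus strand), whose product TRIF is the signaling adaptor of TLR3 and of endosomal TLR4, was at 22.7, 20.8, and 30.9 CPM with PBS. It was at 41.9, 50.9, and 57.8 CPM with LPS, without overlap of the groups. The log2 fold change was 1.02 (SE 0.24, edgeR's adjusted p = 0.0055)), with 0.88, 1.29, and 0.90 in the sets. Ticam1 lost its call with total counts (0.35, adjusted p = 0.092), where it was 1.07 above the median of all genes. Without set 2, edgeR called 6 members higher, with Ticam1 no longer among them (13.5% of all genes), whereas the fit with the sets as a block called 8, Ticam1 and Ticam2 included (19.3% of all genes). Ticam2 (ENSMUSG00000056130.5; chromosome 18, 46557291 to 46574533, minus strand), encoding the bridging adaptor TRAM, was the least expressed member after Traf1 at rest, at 13.7, 17.6, and 9.04 CPM. It was at 22.6, 19.1, and 16.9 CPM with LPS, and the PBS library of set 2 overlapped these values. Its log2 fold change of 0.54 (SE 0.29, edgeR's adjusted p = 0.148) did not pass the thresholds. With the sets as a block it was 0.582 (edgeR's adjusted p = 0.00419) and missed only the minimum of 1.5-fold, by a narrow margin. Within the sets it was 0.72, 0.12, and 0.91, so that Ticam2 was higher with LPS in each set. With total counts the value was −0.10, and relative to the median of all genes 0.61. In every condition Ticam2 was lowest in set 3, where Ticam1 and Myd88 were highest.

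Among the kinases, Irak4 (ENSMUSG00000059883.12; chromosome 15, 94543643 to 94581815, plus strand), the kinase that binds MyD88 directly and starts the cascade, was nearly level over all conditions. It was at 35.5, 36.4, and 34.4 CPM with PBS and at 31.4, 36.8, and 36.8 with LPS. The difference of −0.019 on the log2 scale had an SE of 0.11 (edgeR's adjusted p = 0.911) and was not of the same sign in every set. Irak1 (ENSMUSG00000031392.14; chromosome X, 74013914 to 74023918, minus strand), a substrate of IRAK4 that recruits TRAF6, was at 86.7, 101, and 109 CPM with PBS and at 67.2, 77.9, and 88.5 with LPS. It was lower with LPS in each set, by −0.37, −0.37, and −0.31, but the groups overlapped and the log2 fold change of −0.35 (SE 0.18, edgeR's adjusted p = 0.138) was not called. With the sets as a block, edgeR's adjusted p was 0.00435, and Irak1 missed only the minimum of 1.5-fold. With total counts Irak1 was called lower at −1.01 and Irak4 at −0.68, which relative to the median of all genes were −0.30 and 0.033.

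The other kinases responded strongly. Irak2 (ENSMUSG00000060477.10; chromosome 6, 113638467 to 113695026, plus strand), which acts beside IRAK1 and sustains late signaling, was at 42.8, 47.0, and 69.9 CPM with PBS and at 310.5, 342, and 302 with LPS. Every LPS library lay far above every PBS library, and the log2 fold change was 2.58 (SE 0.24, edgeR's adjusted p = 1.19e-05). Irak3 (ENSMUSG00000020227.6; chromosome 10, 120141648 to 120202130, minus strand), which encodes the inhibitory family member IRAK-M, was at 22.1, 21.4, and 27.6 CPM with PBS. It was at 264, 284, and 342 CPM with LPS. This was the highest fold among the kinases, at 12.5-fold (log2 fold change 3.64, SE 0.19, edgeR's adjusted p = 4.49e-07)), with 3.57, 3.73, and 3.63 in the sets.

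Traf6 (ENSMUSG00000027164.8; chromosome 2, 101678429 to 101701669, plus strand), the ubiquitin ligase that carries the signal from the IRAK kinases to TAK1, was at 38.1, 41.9, and 35.3 CPM with PBS and at 58.6, 61.5, and 64.0 with LPS. The groups did not overlap, and the log2 fold change was 0.67 (SE 0.10, edgeR's adjusted p = 2.96e-04). With total counts it was 0.017 and not called (0.73 above the median of all genes). Traf1 (ENSMUSG00000026875.10; chromosome 2, 34941750 to 34961772, minus strand), a TRAF protein without ligase activity of its own and a known NF-κB target, was near the lower limit at rest, at 1.87, 1.65, and 2.93 CPM. With LPS it reached 114, 133, and 192 CPM. The log2 fold change was 6.09 (SE 0.60, edgeR's adjusted p = 1.56e-05), and it was 5.93, 6.33, and 6.04 within the sets.

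In macrophages that received 3′SL, LPS gave the same order of folds, and 5 members were called higher and 0 lower, against 29.2% of all genes called and 14.3% called higher. Myd88 was at 52.6, 49.3, and 78.8 CPM with 3′SL and at 254, 291, and 414 with LPS + 3′SL, a log2 fold change of 2.41 (SE 0.26, edgeR's adjusted p = 5.46e-05). Irak2 was at 43.4, 45.3, and 75.1 CPM with 3′SL and at 237, 276, and 297 with LPS + 3′SL, a log2 fold change of 2.31 (SE 0.24). For these as for Irak3 (2.71, SE 0.18) and Traf1 (4.24, SE 0.54), every library with LPS + 3′SL lay above every library with 3′SL alone. The same held for Tirap, Ticam1, and Traf6, so that 7 of the 10 members separated, against 22.4% of all genes. Traf1 moved most, to 5.03, in the fit that omitted the set 3 library with 3′SL. Ticam1 was called only narrowly, at a log2 fold change of 0.72 (SE 0.24, edgeR's adjusted p = 0.0382), from 28.5, 23.4, and 39.4 CPM with 3′SL to 42.9, 42.0, and 65.6 with LPS + 3′SL. Its call was lost when any of 4 libraries was left out, namely the 3′SL library of set 1 (edgeR's adjusted p = 0.104) or set 2 (0.134), the LPS library of set 2 (0.0532), or the LPS + 3′SL library of set 3 (0.162). It was also lost with total counts and when only the compared conditions were fitted. Tirap (0.50, edgeR's adjusted p = 0.00991) and Traf6 (0.47, edgeR's adjusted p = 0.00432) were below 1.5-fold. With total counts, 4 members were called higher (9.44% of all genes) and Irak1 lower (−0.85; 33.9% of all genes), while the median of all genes was at −0.54.

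**Figure D2:**
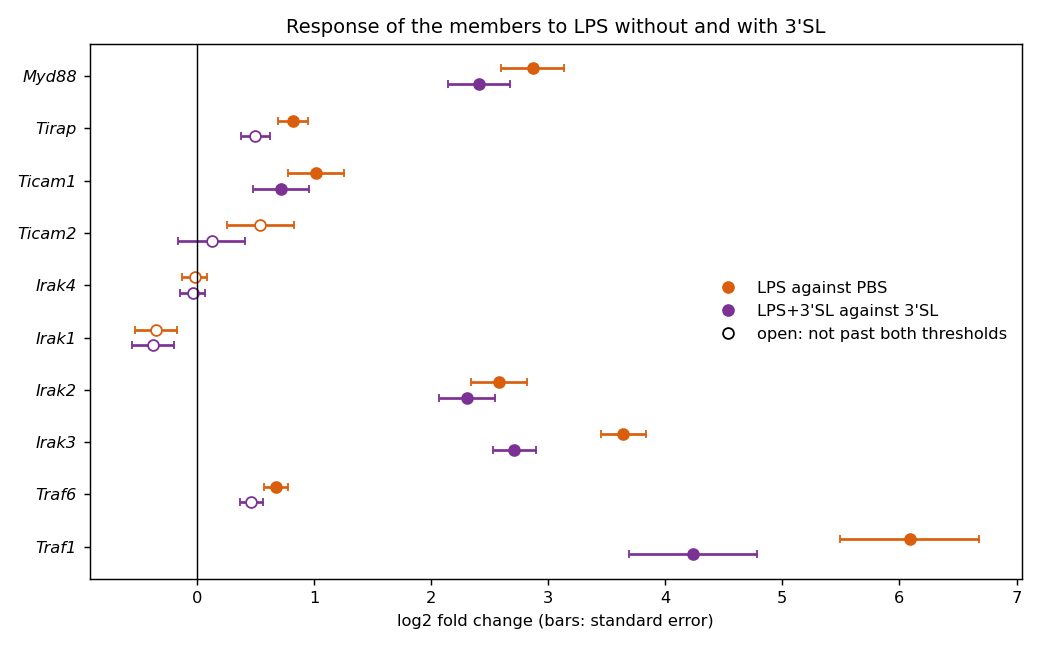
Log2 fold change with LPS for each member in the absence (LPS against PBS) and presence of 3′SL (LPS + 3′SL against 3′SL); bars are SEs of edgeR's fit, and filled points passed both thresholds. Traf1, Irak3, Myd88, and Irak2 head both comparisons, and the point with 3′SL lies to the left of the point without it for all 10 members with TMM factors, by the least for Irak4 and Irak1, for which it lies to the right with total counts.

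3′SL by itself left no member past the thresholds in edgeR's test, where 0 of all genes (0%) were called. Of the members, 0 had an unadjusted p under 0.05, against 10.1% of all genes. DESeq2 called 0 members and 0.615% of all genes. The highest estimate was that of Traf1, at 3.65, 1.87, and 8.75 CPM with 3′SL against 1.87, 1.65, and 2.93 with PBS. The groups overlapped, and the log2 fold change of 1.14 (SE 0.53, edgeR's adjusted p = 0.513) dropped to 0.33 without the 3′SL library of set 3. With the sets as a block Traf1 was called (1.05, edgeR's adjusted p = 0.047), where 2.84% of all genes were. Leaving out set 1, 2, or 3 from the block fit removed this call. Ticam1 was higher with 3′SL in each set, by 0.33, 0.17, and 0.35, and its log2 fold change was 0.30 (SE 0.24, edgeR's adjusted p = 0.738). Altogether 6 members, namely Myd88, Ticam1, Irak1, Irak3, Traf1, and Traf6, were higher in all sets (25.8% of all genes) and 2, Tirap and Ticam2, were lower in all sets (25.5%). Of the 7 members that LPS raised, 1 lay below 0, with a median of 0.19 over the 7. Of all 2613 genes that LPS raised, 28.6% lay below 0, with a median of 0.15. The comparison shares its PBS libraries with the one that selected these genes. The estimates of the 9 members other than Traf1 lay between −0.15 for Ticam2 and 0.30 for Ticam1, and for 0 of the 10 members did the 3′SL and PBS libraries separate, against 9.02% of all genes separated upward and 8.53% downward.

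Under LPS stimulation, the LPS + 3′SL libraries all lay below the LPS libraries for 4 members, Irak3, Tirap, Ticam2, and Irak2, but edgeR's test called 0 of the 10 members. It also called 0 of all genes (0%). Separation in this direction was seen in 6.50% of all genes. The unadjusted p was under 0.05 for 2 members, Irak3 and Tirap, and for 6.95% of all genes. DESeq2 called Irak3 and 0.79% of all genes. Irak3 was at 131, 177, and 200 CPM with LPS + 3′SL, compared with 264, 284, and 342 with LPS. The log2 fold change was −0.81 (SE 0.17, edgeR's adjusted p = 0.164)), with −1.01, −0.68, and −0.77 in the sets. It was past the thresholds with DESeq2's Wald test (adjusted p = 0.0074), with the sets as a block in edgeR (−0.82, adjusted p = 0.00125, where 1.45% of all genes were called), and in edgeR's fit without set 3 (1.04% of all genes). The block fit no longer called it without set 1 or without set 2. Even with 3′SL, Irak3 remained above every library without LPS, of which the highest had 29.3 CPM. Over the other alternatives and the libraries left out in turn, edgeR's adjusted p for Irak3 lay between 0.0611 and 0.553.

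Tirap was at 29.0, 29.5, and 39.5 CPM with LPS + 3′SL, below the 39.8 CPM of the lowest LPS library by a narrow margin. Its log2 fold change was −0.40 (SE 0.13, edgeR's adjusted p = 0.43)), with −0.55, −0.43, and −0.24 in the sets. Ticam2 was at 14.9, 15.5, and 9.27 CPM, which was close to its levels with PBS. The log2 fold change was −0.56 (SE 0.29, edgeR's adjusted p = 0.788)), with −0.61, −0.30, and −0.87 in the sets. Irak2 differed by −0.24 (SE 0.23), almost entirely in sets 1 and 2 (−0.39, −0.31, and −0.024). Traf1 was at 59.3, 71.3, and 138 CPM with LPS + 3′SL, and the set 3 library overlapped the LPS libraries. Its log2 fold change was −0.71 (SE 0.47, edgeR's adjusted p = 0.936), and it was lower within each set (−0.94, −0.90, and −0.48). With the sets as a block, edgeR's adjusted p was 0.0541 for Tirap, 0.0601 for Ticam2, and 0.0678 for Traf1. It was 0.13 for Myd88 and 0.474 for Irak2, and the block fit over all sets called none of these members. The block fit without set 3, besides Irak3, called Traf1 as well, among 2.58% of all genes. Myd88 was likewise lower within each set (−0.31, −0.33, and −0.17), with a log2 fold change of −0.26 and an SE of 0.25 in the fit over all libraries. Ticam1, in contrast, gave −0.00093 with an SE of 0.24, and the sets were of both signs (0.034, −0.28, and 0.18). Traf6 (−0.016, SE 0.10) and Irak4 (0.072, SE 0.11) differed by less than their standard errors, and Irak1 was higher by 0.20 (SE 0.18). Thus 6 members were lower in all sets, against 25.7% of all genes and 62.3% of the genes that LPS raised, and the median over the 10 members was −0.25 against −0.0079 over all genes. All 7 members that LPS had raised lay below 0, with a median of −0.26, and so did 81.3% of the 2613 genes that LPS raised, with a median of −0.18. The comparison shares its LPS libraries with the one that selected these genes.

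**Figure D3:**
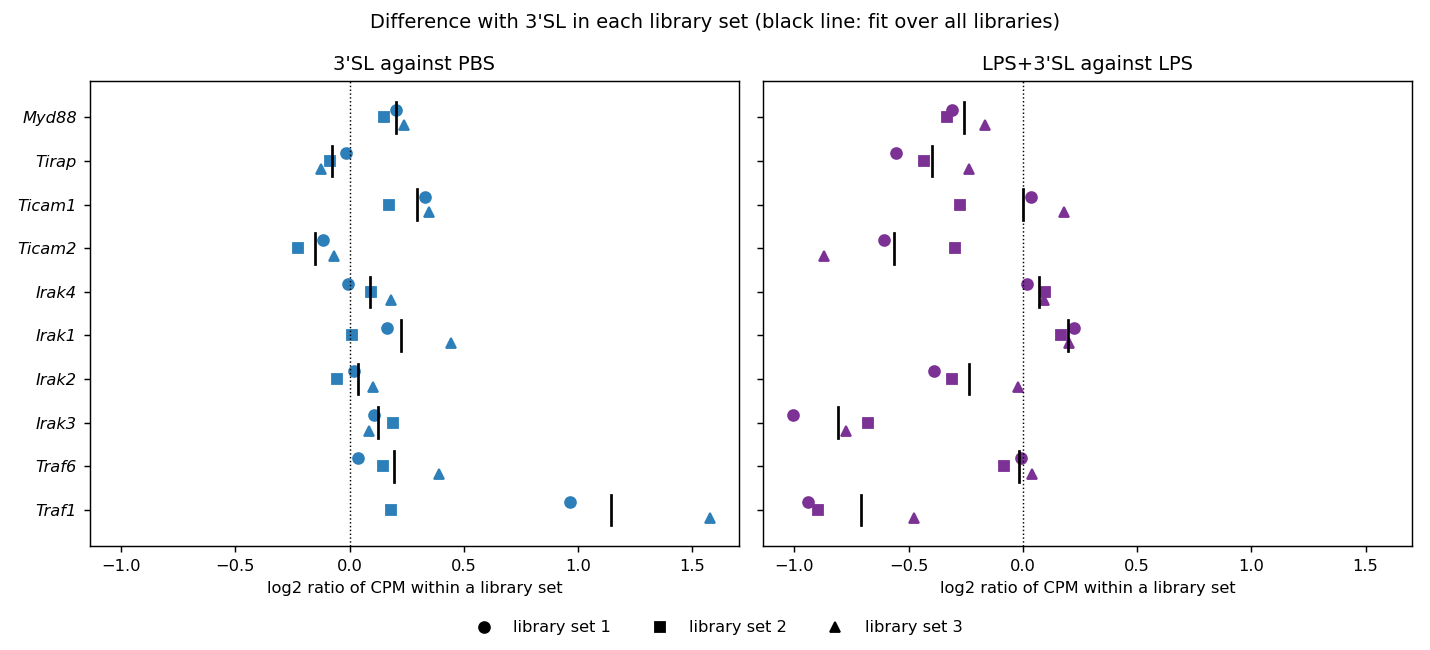
Log2 ratio of CPM with and without 3′SL within each library set (symbols) and the fit over all libraries (black lines), without LPS (left) and with LPS (right). Without LPS, Traf1 alone reaches beyond 1 in a set; with LPS, Irak3 lies between −1.01 and −0.68 in all sets, Traf1 below 0 in all, and Ticam1 and Traf6 on both sides of 0.

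The difference between the effects of 3′SL with and without LPS is the interaction term, which is equally the difference between the LPS responses with and without 3′SL. It was below 0 for all 10 members with TMM factors, although Irak1 and Irak4 turned positive with total counts, and 8 members (all except Irak1 and Irak4) were below 0 in all sets, against 25.5% of all genes and 61% of the genes that LPS raised. The median over the 10 members was −0.31 and that of all genes was −0.0050. Over the 7 members that LPS raised it was −0.32, and over all 2613 such genes −0.34. The interaction shares the LPS and PBS libraries with the comparison that selected these genes. None of these differences passed edgeR's test, in which 0 of all genes (0%) were called. An unadjusted p under 0.05 was reached by 2 members, Irak3 and Traf1, and by 6.09% of all genes. DESeq2 called 0 members and 0.308% of all genes. For Irak3 the term was −0.93 (SE 0.24, edgeR's adjusted p = 0.588), with −1.12, −0.87, and −0.86 within the sets. For Traf1 it was −1.85 (SE 0.71, edgeR's adjusted p = 0.746), with −1.91, −1.08, and −2.05, and it was −1.04 without the 3′SL library of set 3. The block fit called Irak3 (−0.94, edgeR's adjusted p = 0.00946) and Traf1 (−1.83, adjusted p = 0.024) among 1.55% of all genes, and these calls were again absent without set 1 or without set 2. For Tirap, Ticam1, and Myd88 the term was −0.32, −0.30, and −0.46, with standard errors of 0.18, 0.34, and 0.35.

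The mRNA levels of single genes of the branches were compared by the ratio of 2 genes within a library, which does not depend on the scaling of libraries. The number of Myd88 reads per Ticam1 read was 2.02, 2.14, and 2.16 with PBS and 1.84, 2.10, and 2.00 with 3′SL. With LPS it was 7.53, 7.19, and 8.02, and with LPS + 3′SL it was 5.93, 6.92, and 6.31. On the log2 scale, the ratio was 1.07 ± 0.054 (SD, n = 3) with PBS and 2.92 ± 0.080 with LPS, a difference of 1.85, so that Myd88 mRNA gained on Ticam1 mRNA by far more than the spread between libraries. With LPS + 3′SL the log2 ratio was 2.67 ± 0.11, lower than with LPS by −0.25, and the highest of these libraries (2.79) lay just below the lowest LPS library (2.85). No test was made of these ratios. The choice of gene mattered, since with Tirap in place of Myd88 the log2 ratio to Ticam1 was −0.0052 ± 0.24 with PBS, −0.21 ± 0.21 with LPS, and −0.60 ± 0.11 with LPS + 3′SL. Relative to Ticam1, then, Myd88 mRNA gained with LPS while Tirap mRNA did not. With Ticam2 in place of Ticam1 the difference between LPS and PBS was 2.29, and that between LPS + 3′SL and LPS was 0.32, the reverse of the direction seen with Ticam1. The ratio of Irak3 to Irak1, an inhibitory to an activating member of the IRAK family, changed more than the others. It was −2.06 ± 0.15 with PBS, −2.14 ± 0.18 with 3′SL, 1.93 ± 0.057 with LPS, and 0.91 ± 0.15 with LPS + 3′SL, without overlap between the conditions with LPS. In read counts, this was 0.24 Irak3 reads per Irak1 read with PBS, 3.81 with LPS, and 1.88 in the presence of both. The log2 ratio of Irak2 to Irak1 was −0.92 ± 0.24 with PBS, 2.04 ± 0.23 with LPS, and 1.60 ± 0.057 with LPS + 3′SL.

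**Figure D4:**
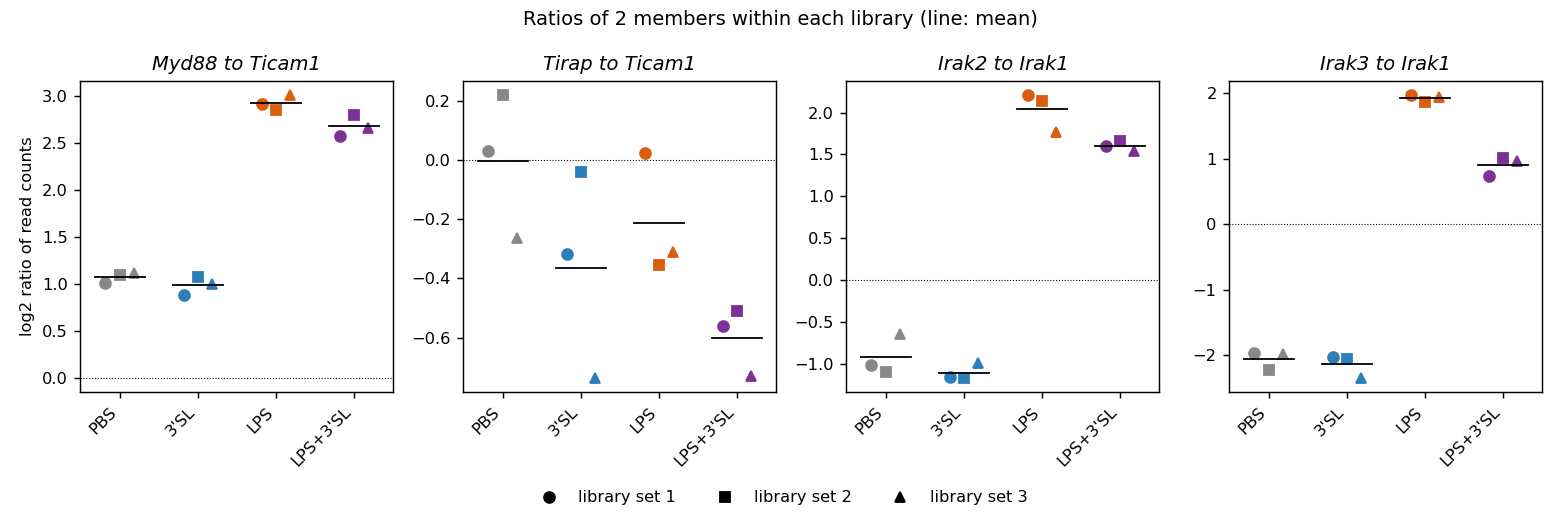
Log2 ratio of the read counts of 2 members within each library, by condition; symbols mark the library set, lines the mean of 3 libraries, and each panel has a range of its own. Myd88 to Ticam1 and both IRAK ratios are higher with LPS than without it in every library, and Irak3 to Irak1 is at 0.74 to 1.02 with LPS + 3′SL, below the 1.86 to 1.97 with LPS.

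The members also varied together within conditions. After condition means were removed, the log2 CPM of Myd88 and Ticam1 had a Pearson r of 0.965 over the 12 libraries, whereas Ticam2 ran against both, with −0.939 for Myd88 and −0.976 for Ticam1. These values describe the library sets that the libraries share, and 14.5% of the exonic bases of Ticam2 are shared with Tmed7 on the same strand, so that its counts are uncertain. Over all 12 libraries, the genes whose log2 CPM was most like that of Myd88 were Il2rg, the common cytokine receptor gamma chain (Pearson r = 0.9995), Slc31a2 (0.999), and Rnf114 (0.9987), among 1298 genes above 0.95. For Ticam1 they were Sertad1 (0.989), Sphk2, a sphingosine kinase (0.989), and Zbtb7a (0.986), among 260 genes above 0.95. Exons of Myd88, Tirap, Irak2, Irak3, and Irak4 overlap genes on the opposite strand, at most over 11.3% of their length (Myd88 with Acaa1a). Whether the counting used the strand is not given in the sources used here, and these counts are uncertain to that extent. Exons of Ticam1, Traf6, and Traf1 overlap no other gene.

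Around the members, 44 other genes of the pathway were examined in 4 lists, and 43 of them could be tested. With LPS, 17 rose and 6 fell (edgeR's test as above), against 18.3% of all genes called higher and 20.2% lower. The median log2 fold change of the pathway genes was 0.33. Of the 13 partners on the MyD88 side, 5 rose and 3 fell. Scimp, a transmembrane scaffold of TLR4 (4.21, SE 0.84), the ubiquitin ligase Peli1 (3.28, SE 0.21), and Tifa, which binds TRAF6 (2.17, SE 0.17), led the increases. The decreases were in Peli2 (−1.54), Ecsit (−1.21), and Tab1 (−0.83), of which Tab1 encodes a subunit of the TAK1 complex. Of the 12 partners on the TRIF side, 5 rose, led by the IRF3 kinase Ikbke (2.77, SE 0.41) and the TBK1 adaptors Azi2 (2.47, SE 0.25) and Tank (2.04, SE 0.21), and 1 fell, the death domain adaptor Fadd (−0.77). Partners of both branches thus rose, while 5 of the 13 on the MyD88 side and 6 of the 12 on the TRIF side were not called. Among 7 other genes of TRAF proteins and TRAF3-interacting proteins, Traf2 (1.94), Traf5 (1.55), and Traf3ip2 (1.18) rose, and Traf3ip3 (−2.26) fell. Of the 11 tested inhibitors of the pathway, 4 rose and 1 fell. The A20 gene Tnfaip3 (3.79, SE 0.39), its partner Tnip1 (3.35), and Trafd1 (3.27) rose by folds close to that of Irak3, and Irak1bp1 (−1.91, edgeR's adjusted p = 0.0403) fell from levels of at most 1.87 CPM. With total counts, 15 pathway genes were called higher and 18 lower, where 10.7% and 46.5% of all genes were. In macrophages given 3′SL, LPS raised 17 and lowered 5, against 14.3% of all genes called higher and 29.2% called in either direction.

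**Figure D5:**
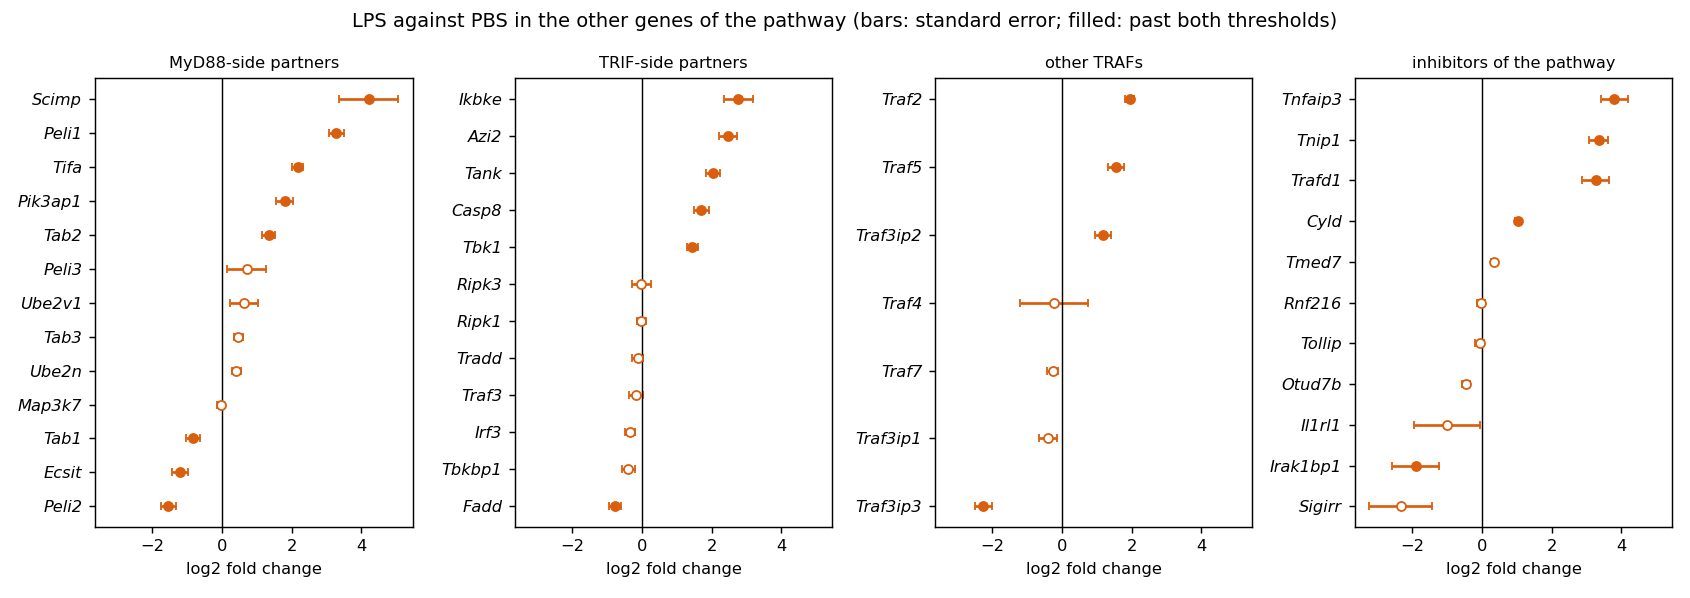
Log2 fold change of LPS against PBS for the 43 tested pathway genes that are not members, in 4 lists; bars are standard errors and filled points passed both thresholds. The increases reach 4.21 for Scimp on the MyD88 side, 2.77 for Ikbke on the TRIF side, 1.94 for Traf2, and 3.79 for Tnfaip3, and the called decreases reach −2.26 for Traf3ip3.

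The effect of 3′SL on these pathway genes did not pass edgeR's thresholds in any comparison, with or without LPS, and DESeq2 called 0 as well, against 0.615%, 0.79%, and 0.308% of all genes without LPS, with LPS, and in the interaction. Under LPS stimulation, 2 pathway genes had lower levels with 3′SL without overlap of the groups, Tnfaip3 and the ubiquitin-conjugating enzyme gene Ube2n (−0.32), and 2 had higher levels, Traf3 (0.16) and Traf3ip3 (0.50). Of all genes, 6.50% and 6.24% separated in these directions. Ube2n and Traf3 were chosen for mention with their values in view. Tnfaip3 was at 721, 858, and 1005 CPM with LPS and at 373, 425, and 614 with LPS + 3′SL, a log2 fold change of −0.87 (SE 0.35, edgeR's adjusted p = 0.641). The block fit called Tnfaip3 (−0.90, edgeR's adjusted p = 0.0104) and 0 other pathway genes in that comparison, where 1.45% of all genes were called. Without LPS the block fit called Peli2 (0.60) and Trafd1 (0.62) higher and Ecsit (−0.74) lower, among 2.84% of all genes. For the interaction it called Tank, Traf5, Trafd1, and Tnip1 lower, among 1.55% of all genes. As for the members, these block calls were absent when set 1 or set 2 was left out.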

How the data were processed

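RNA-Seq libraries of BMDMs (12, 3 per condition) were grouped by their labels. For each library the authors deposited unnormalized whole-number counts for every gene. The submitters' processing notes name FastQC, Trimmomatic, STAR, HTSeq, and DESeq2, while their versions, the genome build, the annotation, and the use of strand are not given in the sources used here. Of all reads, 33.2% to 37.1% per library were not counted on a gene. Names and positions came from GENCODE M21 (GRCm38), which matched 42462 of 43626 identifiers.

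The analysis used edgeR 4.0.16 under R 4.3.3 (filterByExpr, TMM factors, quasi-likelihood test with 1 mean per condition over 12 libraries). Benjamini-Hochberg adjustment covered every tested gene, and genes were called at an adjusted p under 0.05 and 1.5-fold. Standard errors come from this fit, and the steps were tested on simulated data. Members and gene lists were chosen with earlier results of these data known. Named are all members, per pathway list up to 3 genes per direction with the largest change among those called with LPS, every pathway gene called in a 3′SL comparison, and for Myd88 and Ticam1 the 3 genes most correlated with it over the libraries. Ratios of 2 genes used counts with 0.5 added. Libraries of 1 condition differed beyond sampling noise (lowest chi-square 14.9 per gene) and were kept as separate replicates.

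Alternatives were DESeq2's size factors, total counts, DESeq2 1.42.0, other count filters, no fold minimum, library sets as a block, fits of only the conditions compared, each library left out in turn and, chosen after seeing the data, each library set left out. ChIP-Seq, ATAC-Seq, and tissue experiments of the study were not analysed here.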

Additional observations from a re-analysis of the deposited data

Results flagged for a closer look

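For 3 members, the difference with 3′SL was of opposite sign with and without LPS in every library set, being higher with 3′SL than with PBS and lower with LPS + 3′SL than with LPS. Of all genes, 25.8% were higher with 3′SL in all sets without LPS, and 25.7% were lower in all sets with LPS. The share of genes with both was not counted. Among the 2613 genes that LPS raised, 28.6% lay below 0 without LPS and 81.3% with it. Both comparisons share libraries with the one that selected those genes. The interaction term was −0.459 for Myd88 (0.20 without LPS and −0.26 with LPS), −0.932 for Irak3 (0.12 and −0.81), and −1.851 for Traf1 (1.14 and −0.71), all on the log2 scale. In edgeR's test the adjusted p-values were 0.887, 0.588, and 0.746, so that this difference was not past the threshold for any of the 3. With the library sets as a block, edgeR's adjusted p was 0.0724 for Myd88, 0.00946 for Irak3, and 0.024 for Traf1. The block fit no longer called Irak3 or Traf1 without set 1 or without set 2.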

How the results depend on the processing

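With total counts, the sign turned for Ticam2 in LPS against PBS (−0.10) and LPS + 3′SL against 3′SL (−0.34), for Irak2 in 3′SL against PBS (−0.064), for Ticam1 (0.073) and Traf6 (0.070) in LPS + 3′SL against LPS, for Traf6 in LPS + 3′SL against 3′SL (−0.017), and for Irak1 (0.16) and Irak4 (0.16) in the interaction. Of these, 0 had been called. Irak4 turned to 0.033 (DESeq2's size factors) and 0.032 (DESeq2) in LPS against PBS and to 3.6e-05 (DESeq2) in LPS + 3′SL against 3′SL. With all genes with at least 1 count, Ticam1 was at 0.011 in LPS + 3′SL against LPS and Irak1 (0.0022) and Irak4 (0.014) turned in the interaction, and a fit of only the compared conditions gave 0.012 for Ticam1. The log2 ratio of Myd88 to Ticam1 between LPS and PBS became 2.29 with Ticam2 as the TRIF-branch gene and −0.21 with Tirap as the MyD88-branch gene, and between LPS + 3′SL and LPS it became 0.32 and −0.39.

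Members called in LPS + 3′SL against LPS numbered 1 with DESeq2 (Irak3), where 0.79% of all genes were called. The block fit called 1 member and 3 pathway genes in 3′SL against PBS. It called 1 and 1 in LPS + 3′SL against LPS, and 2 and 4 in the interaction. The shares of all genes called were 2.84%, 1.45%, and 1.55%, respectively. When set 3 was left out, the fit without a block called 1 member and 1 pathway gene in LPS + 3′SL against LPS. It called 1.04% of all genes there. The block fit without set 3 called 0 members and 1 pathway gene in 3′SL against PBS. It called 2 and 2 in LPS + 3′SL against LPS, and 2 and 4 in the interaction. Of 14396 genes tested, it called 323, 371, and 457, respectively. Without set 1 or set 2 the block fit called 0 members and 0 pathway genes in each, and at most 3 of all genes. The sets were found in the data, and the labels do not say what their libraries share.

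Leaving out each library in turn gave, in 3′SL against PBS, −0.075 to 0.42 for Myd88, −0.37 to 0.091 for Ticam2, −0.030 to 0.34 for Irak1, −0.30 to 0.28 for Irak2, and −0.0096 to 0.25 for Irak3. It gave −0.24 to 0.11 for Ticam1 and −0.074 to 0.017 for Traf6 in LPS + 3′SL against LPS, −0.056 to 0.052 for Irak4 in LPS against PBS, and −0.044 to 0.33 for Ticam2 and −0.085 to 0.059 for Irak4 in LPS + 3′SL against 3′SL. In the interaction it gave −0.14 to 0.23 for Irak1, −0.52 to 0.065 for Irak2, and −0.087 to 0.078 for Irak4. The cause of these changes was not tested. The calls of Myd88, Irak2, Irak3, and Traf1 in LPS against PBS and in LPS + 3′SL against 3′SL were kept under all alternatives run, the fits without a library set included. The call of Ticam1 in LPS + 3′SL against 3′SL was lost without set 1 or set 2 unless the sets were a block.

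With 3 libraries per condition and a biological coefficient of variation of 0.310 (0.133 with the sets as a block), differences as small as those of most members with 3′SL are not resolved in the fit without a block. Counting error weighs most on Traf1, which had 47 to 87 reads with PBS and 47 to 220 with 3′SL. The other members had at least 173 reads in every library.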
